A study of Mus musculus with 4 samples.

Results

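The Polycomb, DNA methylation and histone modifier genes described here are 40 genes whose products write, read or remove marks on DNA and histones or move nucleosomes. They were listed by name, by a rule that uses no measured value but was written with earlier results of these data known, and were found on the array through the gene name of each probe. Of the 40 genes, 39 had a probe of that name, and 38 had a probe that could be tested, out of 14737 gene names with a tested probe in all. *Hdac1* had no probe of that name, and the single probe of *Kdm6b*, which encodes a demethylase of lysine 27 of histone H3, was not well above background on any array and was not tested. Each gene is given by its brightest tested probe unless another probe is named.

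The RNA came from LSK cells, which are bone marrow cells that lack lineage markers, carry Sca-1 and c-Kit, and include the hematopoietic stem cells. The Meis1-deficient group (Meis1-KO in the labels) was Mx1-Cre positive and Meis1fl/fl, and the control group (Meis1-WT in the labels) was Meis1fl/fl without Cre, both on a C57BL/6J background. Poly(I:C) at 1.5 ug/g was given 4 times at an interval of 1 day from an age of 4 to 8 weeks, and cells were collected 1 week later. The labels give this treatment for both genotypes, whereas the design text and the microarray methods call the control mice sham-treated, so genotype and poly(I:C) treatment cannot be told apart with certainty. Cre under the Mx1 promoter is induced by interferon and is not limited to blood cells, and it removes exon 8 of *Meis1*. Each genotype was measured in 2 pools of 6 mice, with 1 array for each pool, so a p-value measures the spread between pools.

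Polycomb repressive complex 2 (PRC2) places methyl groups on lysine 27 of histone H3, and Polycomb repressive complex 1 (PRC1) binds that mark and ubiquitinates histone H2A. DNA methyltransferases add methyl groups to cytosine, and Tet enzymes oxidize them. In hematopoietic stem cells, *Bmi1* is known for self-renewal, and *Dnmt3a*, *Tet2*, *Asxl1* and *Ezh2* are known as genes that are often mutated in myeloid disease.

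Values are log2 of the processed signal minus the 75th percentile of the array, called scaled signal below, and a difference is always the Meis1-deficient mean minus the control mean on that scale. Arrays with the same replicate number lay on the same slide. The second Meis1-deficient array stood apart: it correlated with the other arrays at 0.89 to 0.92 across tested probes, against 0.96 to 0.97 among the others, its 75th percentile was 90.1 against 147 to 154, and 49.2% of its spots were well above background against 54.7% to 57.4%. *Meis1* itself had a scaled signal of 0.28 and 0.24 in Meis1-deficient cells and of 1.04 and 1.47 in control cells by its brighter probe (difference -0.998, SE 0.43). All 7 LSK marker genes were well above background on all 4 arrays. Of 16 S phase genes 15 were higher in Meis1-deficient cells (median difference 0.36), as were 9 of 11 G2/M genes (median 0.32), against 12378 of 22007 tested probes. Without the second Meis1-deficient array, 11 of 16 S phase genes were higher with a median of 0.035, and the G2/M median was 0.20. The part of the cell cycle in the values below was not tested. Marker genes of other cell types were mixed. Of the tested genes, 0 of 2 B lineage, 0 of 4 plasma cell, 0 of 2 T lineage, 2 of 5 erythroid, 2 of 6 granulocyte and monocyte, and 2 of 5 megakaryocyte genes were higher in Meis1-deficient cells. The plasma cell median was -3.00 on the first slide and 0.94 on the second, and the megakaryocyte medians were -0.24 and -1.48. The mean scaled signal of 8 granulocyte and monocyte genes was 1.45 and -0.72 on the Meis1-deficient arrays. It was 2.09 and -0.71 on the control arrays, and thus lower on the second slide in both genotypes. The neutrophil elastase gene *Elane* (difference -1.58) was the only one of these to meet the criteria of the study given below, *Itga2b* (-1.65) had an unadjusted p under 0.05, and the hemoglobin gene *Hbb-b1* had the largest difference upward (1.86). The T lineage gene *Cd8a* (-1.34) passed the filter on dim probes only through the control arrays, and its difference was 0.022 with normexp correction. The part of these cells in the values of the members was not tested. In RNA of a sorted population, fewer cells of a type and less RNA per cell cannot be told apart.

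None of the 38 tested members met the criteria of the study (more than 2-fold with an unadjusted p under 0.01), which 0.736% of the 22007 tested probes met in limma. None had an unadjusted p under 0.05 either, against 2.81% of all probes. The adjusted p-values of the members ranged from 0.983 to 0.999 (limma, Benjamini-Hochberg over all tested probes). Of the 38 members, 15 had a higher and 23 a lower mean in Meis1-deficient cells, with a median difference of -0.09, compared with 0.08 over all tested probes. With arrays centered on the median instead, the split was 19 higher and 19 lower. The standard error of a member's difference ranged from 0.42 to 1.79 with a median of 0.51, so a difference of 2-fold, or 1 on the log2 scale, came to about 2 standard errors. With only 2 arrays per genotype, the smallest two-sided p of an exact permutation test on a single gene is 0.333.

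With the slide as a block, 2 members, *Crebbp* and *Ep300*, had an unadjusted p under 0.05, against 5.93% of all probes. No member met the criteria of the study in that fit, which 1.93% of all probes did, and the smallest adjusted p of a member was 0.737 (limma). Both Meis1-deficient arrays lay below both control arrays for 6 members (*Cbx2*, *Ezh1*, *Dnmt3b*, *Ash1l*, *Ep300* and *Smarca4*), a count to be read against 10.8% of all probes. Both lay above for 5 members (*Suz12*, *Wdr5*, *Rbbp5*, *Suv39h1* and *Hdac2*), against 16% of all probes. The *Ep300* probe, counted among the 2 and among the 6, was tested only through the control arrays, where it was high.

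**Figure D1:**
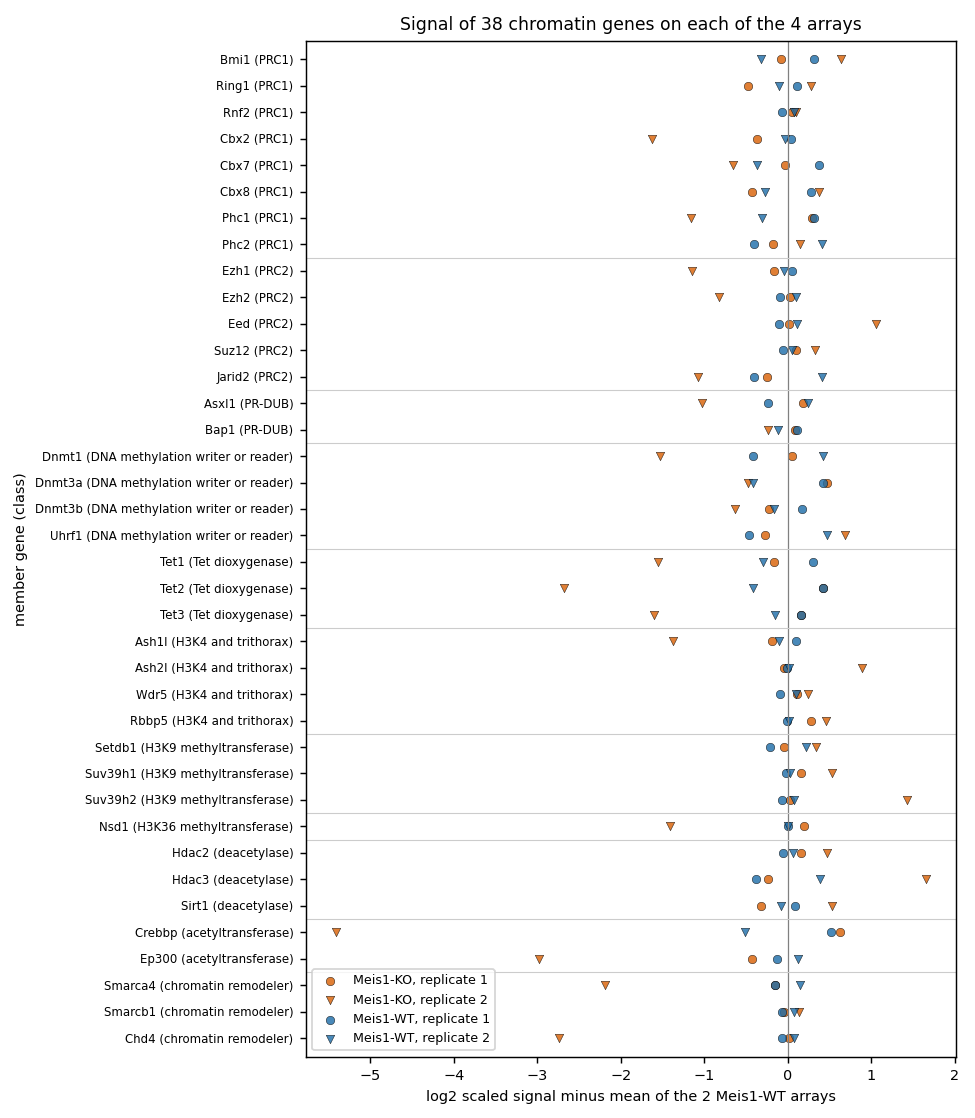
Scaled signal of each of the 38 tested members on the 4 arrays (x axis, log2, relative to the mean of the 2 control arrays of that gene), with genes on the y axis in order of class. The second Meis1-deficient array (orange triangles) is the lowest of the 4 for 20 members and the highest for 17, and its largest distance from the control mean is that of *Crebbp*.

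The 2 acetyltransferases had the lowest differences of all members by their brightest probes in the main scaling. With normexp correction, *Chd4* (-1.32) was below *Crebbp* (-1.30), and with the mean of each gene's probes *Chd4* (-1.09) was below *Crebbp* (-0.80). The rank of *Ep300* rests on a probe tested only through the controls. With normexp correction *Ep300* was at -0.20, above *Smarca4* (-1.03) and *Tet2* (-0.93) among others. *Crebbp* and *Ep300* encode the coactivators CBP and p300, which acetylate histone H3 and many transcription factors. *Crebbp* had a scaled signal of 3.14 and -2.90 on the Meis1-deficient arrays and of 3.04 and 2.00 on the control arrays, a difference of -2.40 (SE 1.79, adjusted p = 0.983 in limma). The first Meis1-deficient array was the highest of the 4 and the second the lowest, so the genotypes overlapped. Before background subtraction, the single spot of this probe read 1333 and 73.3 on the Meis1-deficient arrays, in replicate order, and 1235 and 646 on the control arrays, and it was not marked as an outlier on any array.

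*Ep300* had a scaled signal of -1.32 and -3.86 in Meis1-deficient cells and of -1.01 and -0.76 in control cells, a difference of -1.71 (SE 0.84, adjusted p = 0.983 in limma). Both Meis1-deficient values were lower than both control values, and the lowest one was not well above background. With the slide as a block, the unadjusted p was 0.030 for *Crebbp* and 0.027 for *Ep300* (limma, adjusted p = 0.751 and 0.737). With normexp background correction, the *Ep300* difference was -0.20. With only probes well above background on all 4 arrays, *Ep300* was given by another probe, whose difference was 0.16. The brightest *Ep300* probe entered the test only through the control arrays, where it was high, so its p-values were conditioned on the difference.

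Among chromatin remodelers, *Chd4*, the ATPase of the NuRD complex, and *Smarca4*, an ATPase of SWI/SNF complexes, were low on the same array, whereas *Smarcb1*, a core SWI/SNF subunit, was nearly level. *Chd4* had a scaled signal of 3.46 and 0.70 in Meis1-deficient cells and of 3.37 and 3.52 in control cells, a difference of -1.37 (SE 0.89, adjusted p = 0.983 in limma). *Smarca4* had 2.08 and 0.04 in Meis1-deficient cells against 2.08 and 2.38 in control cells, and the difference was -1.17. The *Smarcb1* values were 3.83 and 4.02 against 3.81 and 3.96, a difference of 0.04 that was below 0 with quantile normalization or normexp correction. For *Chd4* and *Smarca4*, 3 of the 4 arrays thus lay close together with the second Meis1-deficient array below them, and on the first slide the *Smarca4* difference was -0.0009.

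Probes of both remodelers, and of *Ash1l*, cover more bases of the genome than their own 60, so that they cross an intron and match the spliced transcript. They are shown, as picked after their values were seen, because each was more than 2-fold lower on the second slide. The intron-crossing probe of *Dnmt1*, not shown, was also more than 2-fold lower there (-1.96), whereas those of *Dnmt3a* (-0.06), *Nsd1* (-0.62) and *Hdac2* (0.41) were not. The *Chd4* probes lie at chr6:125047264-125050525 and chr6:125073647-125078816 (plus strand), the *Smarca4* probe at chr9:21445519-21446917 (plus strand) and the *Ash1l* probe at chr3:88847557-88855961 (plus strand), all on mm9.
Chd4, upstream probe: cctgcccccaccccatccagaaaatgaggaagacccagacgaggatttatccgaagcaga
Chd4, downstream probe: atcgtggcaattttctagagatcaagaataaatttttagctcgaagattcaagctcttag
Smarca4: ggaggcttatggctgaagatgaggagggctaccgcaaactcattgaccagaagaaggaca
Ash1l: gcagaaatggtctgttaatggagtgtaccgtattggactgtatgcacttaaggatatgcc
The upstream *Chd4* probe had a difference of -0.61 and the downstream one of -1.37. The *Smarca4* probe differed by -0.83 and the *Ash1l* probe by -1.63. On the first slide, the same 4 probes differed by -0.16, 0.09, 0.10 and -0.19, in that order.

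The 3 Tet genes, whose products oxidize 5-methylcytosine, all had lower means in Meis1-deficient cells under each scaling tried. *Tet2* had a scaled signal of 2.83 and -0.27 in Meis1-deficient cells and of 2.83 and 1.98 in control cells, a difference of -1.13 (SE 1.00, adjusted p = 0.983 in limma). *Tet1* had 0.57 and -0.83 against 1.03 and 0.43, and its difference was -0.86. *Tet3* had 2.54 and 0.78 against 2.54 and 2.22, with a difference of -0.72. In none of the 3 did the genotypes separate, since the first Meis1-deficient array lay at or above the lower control array. Without the second Meis1-deficient array, the differences were -0.16 for *Tet1*, 0.42 for *Tet2* and 0.16 for *Tet3*.

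Of the genes for writing or reading DNA methylation, *Dnmt1*, the maintenance methyltransferase, differed most between the slides. Its scaled signal was -0.29 and -1.87 in Meis1-deficient cells against -0.76 and 0.08 in control cells, with a difference of 0.48 on the first slide and of -1.96 on the second (mean difference -0.74, SE 0.66, adjusted p = 0.983 in limma). *Uhrf1*, which guides Dnmt1 to hemimethylated DNA, had 4.19 and 5.14 against 4.00 and 4.93. Its difference of 0.20 (SE 0.56, adjusted p = 0.985 in limma) was the same in sign on both slides, but below 0 with quantile normalization or normexp correction, and its slides differed more than its genotypes. The de novo methyltransferase *Dnmt3a* had 3.49 and 2.54 against 3.44 and 2.60. It thus followed the slide in both genotypes, and its difference was -0.0022, and above 0 with median scaling. *Dnmt3b*, the other de novo enzyme, had 2.52 and 2.11 against 2.92 and 2.58 and had differences of -0.39 on the first slide and -0.47 on the second.

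Within PRC1, 6 of 8 members had a lower mean in Meis1-deficient cells, and 4 of 8 with median scaling. *Cbx2*, which reads the methylated lysine 27, had the largest difference by the brightest probes, with a scaled signal of -0.52 and -1.78 in Meis1-deficient cells and of -0.13 and -0.19 in control cells (difference -0.99, SE 0.55, adjusted p = 0.983 in limma). Without the second Meis1-deficient array it was -0.36, and *Ring1* (-0.48) and *Cbx8* (-0.43) were lower. *Bmi1* had 2.38 and 3.1 against 2.77 and 2.14, a difference of -0.39 on the first slide and of 0.96 on the second. *Ring1*, which encodes a ubiquitin ligase of PRC1, had -2.15 and -1.40 against -1.57 and -1.78 (difference -0.10, SE 0.47, adjusted p = 0.990 in limma). *Cbx8*, a further Cbx reader, had -1.93 and -1.13 against -1.23 and -1.78, or -0.71 on the first slide and 0.65 on the second. *Bmi1*, *Ring1* and *Cbx8* thus lay lower in Meis1-deficient cells on the first slide and higher on the second. With normexp correction, the mean differences of *Ring1* (0.11) and *Cbx8* (0.08) were above 0 and that of *Rnf2* (-0.013) below it, and with median scaling those of *Cbx8* and *Phc2* were above 0. The other ubiquitin ligase, *Rnf2*, had 1.11 and 1.16 against 0.99 and 1.13, with differences of 0.12 and 0.03 on the slides. *Cbx7*, another reader of the mark, had 1.34 and 0.72 against 1.74 and 1.00, and it was lower on both slides in Meis1-deficient cells and lower on the second slide in both genotypes. The PRC1 scaffold gene *Phc2* had 0.20 and 0.52 against -0.02 and 0.79, and it was the only member of the 38 for which the second Meis1-deficient array was neither the highest nor the lowest. On the first slide, 6 of the 8 PRC1 members were lower (median -0.40), and on the second 4 of 8 (median -0.12).

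Within PRC2, 3 of 5 members had a lower and 2 a higher mean in Meis1-deficient cells. The methyltransferases *Ezh1* and *Ezh2* had differences of -0.65 and -0.40, and the recruiting subunit *Jarid2* one of -0.66, whereas *Eed* and *Suz12*, which hold the complex together, had 0.53 and 0.21. *Eed* had a scaled signal of 1.80 and 2.85 in Meis1-deficient cells and of 1.68 and 1.91 in control cells (SE 0.52, adjusted p = 0.983 in limma). *Suz12* had 3.60 and 3.82 against 3.45 and 3.55 (SE 0.42, adjusted p = 0.983), and *Jarid2* 1.05 and 0.22 against 0.90 and 1.71 (SE 0.53, adjusted p = 0.983 in limma). For *Ezh2*, the values 1.76 and 0.92 stood against 1.65 and 1.83, and for *Ezh1*, -0.26 and -1.24 against -0.05 and -0.15. Of the 5 genes, *Ezh1* was lower and *Suz12* higher on both Meis1-deficient arrays than on both control arrays, and the other 3 overlapped. The signs were the same under each scaling tried, but on the first slide 4 of the 5 were higher, the second *Suz12* probe had -0.19, no member of PRC2 had an unadjusted p under 0.05, and without the second Meis1-deficient array the 5 genes lay between -0.25 and 0.10. Of the PR-DUB, which removes ubiquitin from histone H2A, *Asxl1* had 0.45 and -0.77 against 0.02 and 0.51 (difference -0.43, SE 0.56, adjusted p = 0.983 in limma), and the deubiquitinase *Bap1* had 2.73 and 2.41 against 2.76 and 2.54.

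The *Ezh2* and *Eed* probes also cross an intron, at chr6:47482047-47482942 and chr7:97113321-97116230 (both minus strand, mm9), and are shown as the catalytic and the core subunit that differed in opposite directions on the second slide.
Ezh2: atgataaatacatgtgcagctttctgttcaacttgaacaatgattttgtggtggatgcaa
Eed: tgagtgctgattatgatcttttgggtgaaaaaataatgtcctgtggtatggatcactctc
On that slide the *Ezh2* probe differed by -0.91 and the *Eed* probe by 0.94, and on the first slide both differed by 0.12.

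The core subunits shared by the methyltransferase complexes for lysine 4 of histone H3 had higher means in Meis1-deficient cells over all 4 arrays, whereas the trithorax gene *Ash1l* had a lower one. *Ash2l* had a scaled signal of 3.74 and 4.67 in Meis1-deficient cells and of 3.77 and 3.80 in control cells (difference 0.42, SE 0.49, adjusted p = 0.983 in limma), and without the second Meis1-deficient array its difference was -0.046. *Rbbp5* had 1.66 and 1.83 against 1.37 and 1.39, and *Wdr5* 2.67 and 2.81 against 2.47 and 2.67. In *Rbbp5* and *Wdr5* both Meis1-deficient arrays lay above both control arrays, by differences of 0.37 and 0.17 that were smaller than their standard errors of 0.42, and that of *Wdr5* was below 0 with normexp correction. *Ash1l*, a methyltransferase for lysine 36, had 3.65 and 2.47 against 3.94 and 3.74 (difference -0.78, SE 0.54, adjusted p = 0.983 in limma). *Nsd1*, which also methylates lysine 36, had 3.25 and 1.64 against 3.06 and 3.05 (difference -0.61, SE 0.62, adjusted p = 0.983 in limma).

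The 3 methyltransferases for lysine 9 of histone H3 and the 3 measured deacetylases had higher means in Meis1-deficient cells under each scaling tried. *Suv39h2* had a scaled signal of 0.45 and 1.85 in Meis1-deficient cells and of 0.36 and 0.50 in control cells (difference 0.72, SE 0.58, adjusted p = 0.983 in limma). *Suv39h1* had 0.97 and 1.35 against 0.79 and 0.84, and *Setdb1* 0.12 and 0.51 against -0.05 and 0.39. Among deacetylases, *Hdac3*, the catalytic subunit of the NCoR and SMRT complexes, had -0.10 and 1.80 against -0.24 and 0.52 (difference 0.71, SE 0.72, adjusted p = 0.983 in limma). *Hdac2* had 1.88 and 2.18 against 1.66 and 1.77, and the NAD-dependent deacetylase *Sirt1* 0.08 and 0.94 against 0.50 and 0.33. In *Suv39h1* and *Hdac2* the genotypes did not overlap, with differences of 0.34 and 0.31 and a standard error of 0.43 for each. Without the second Meis1-deficient array, the 3 methyltransferases lay between -0.05 and 0.15, and the deacetylases between -0.33 and 0.16.

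Comparing the genotypes within each slide showed how much of these differences lay on the second slide. On the first slide, the members ranged from -0.71 (*Cbx8*) to 0.48 (*Dnmt1*), with an SD of 0.28 and a median of 0.07, and 0 of 38 differed by more than 2-fold, against 6.70% of all tested probes. On the second slide they ranged from -4.90 (*Crebbp*) to 1.35 (*Suv39h2*), with an SD of 1.35 and a median of -0.20. There, 14 members (36.8%) were more than 2-fold lower, against 16.3% of all tested probes, and 2 members (5.26%) were more than 2-fold higher, against 13.7%. The direction was the same on both slides for 23 members, 12 higher and 11 lower, and opposite for 15 (39.5%, against 48.7% of all tested probes). Over all 76 tested probes of the members, dim ones included, 2.63% passed 2-fold on the first slide and 51.3% had opposite directions. On the second slide, 34.2% were more than 2-fold lower and 3.95% higher. For 116 other chromatin genes by their brightest probes, these shares were 0.862%, 54.3%, 29.3% and 4.31%, in that order. These shares describe the 4 arrays and were not tested.

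**Figure D2:**
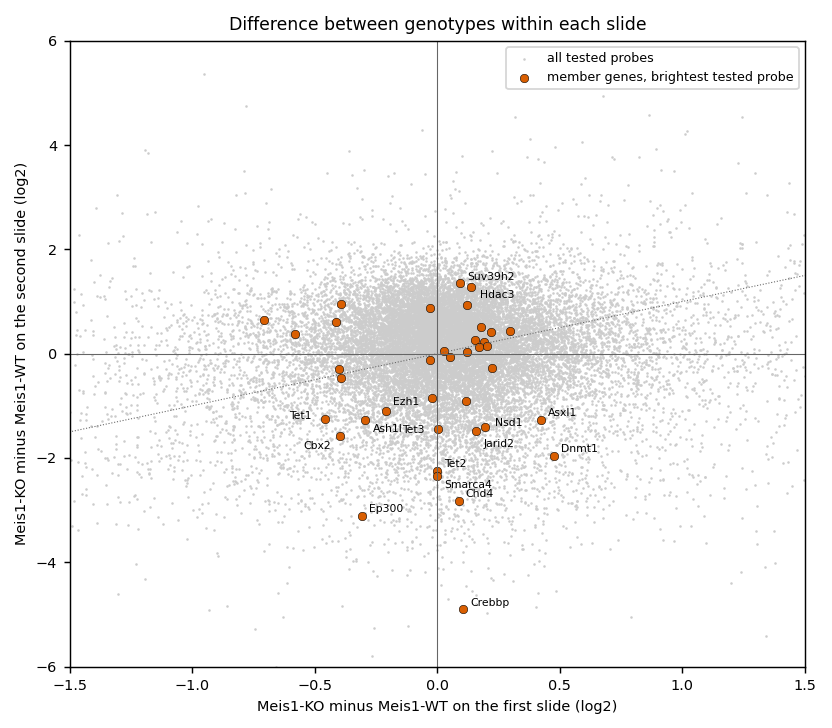
Difference between genotypes on the first slide (x axis, log2) and on the second slide (y axis, log2) for the 38 members (orange) and all 22007 tested probes (gray, of which 621 lie beyond the axes), with the dotted line marking equal differences. The members lie between -0.71 and 0.48 on the x axis and between -4.90 and 1.35 on the y axis, and genes more than 2-fold apart on the second slide are named.

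Without the second Meis1-deficient array, no member met the criteria of the study or had an unadjusted p under 0.05, the split was 19 higher and 19 lower with a median of -0.012, and 18 of the 38 differences changed sign, among them those of *Crebbp* (0.62), *Tet2* (0.42), *Nsd1* (0.20), *Asxl1* (0.18), *Dnmt1* (0.054), *Chd4* (0.011) and *Hdac3* (-0.24). Without the first Meis1-deficient array, 7 members met the criteria and 16 had an unadjusted p under 0.05, and the median was -0.36. In that fit 10.2% of all tested probes met the criteria and 26.3% had such a p, and the lone array was taken to vary like the control pair. The dimmer signal of the second Meis1-deficient array moved with these values, and its part in them was not tested.

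The control arrays differed from each other by a median of 0.24 in absolute size over the members, compared with 0.37 over all tested probes. The Meis1-deficient arrays differed by a median of 0.94 over the members, compared with 0.71. The second Meis1-deficient array was the highest or the lowest of the 4 arrays for 37 of 38 members (97.4%), compared with 77.2% of all tested probes. The share was 89.5% over all tested probes of the members. It was 81.0% over the other chromatin genes described below, by their brightest probes. The largest distances between the Meis1-deficient arrays were 6.04 for *Crebbp*, 3.099 for *Tet2*, 2.76 for *Chd4* and 2.55 for *Ep300*, with the second array lower in each, and the largest in the other direction was 1.90 for *Hdac3*.

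**Figure D3:**
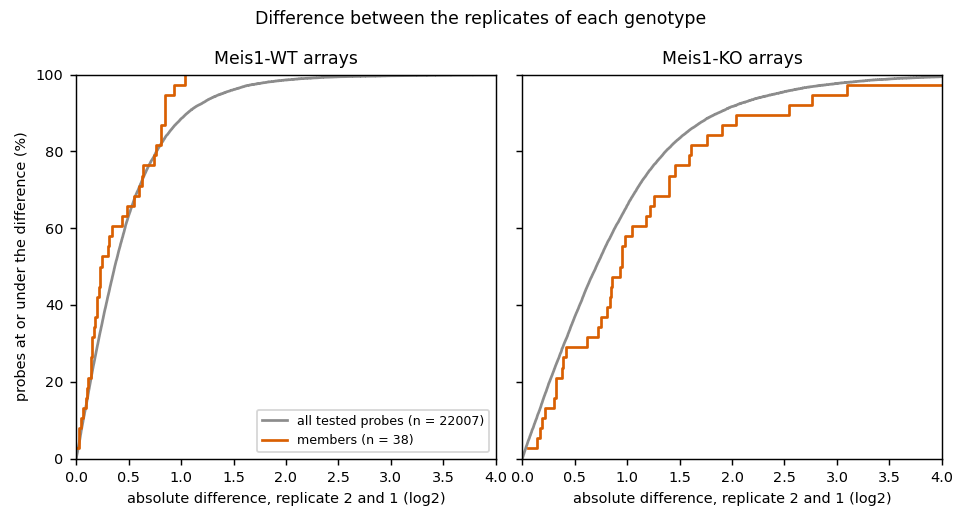
Cumulative share of probes (y axis, %) by the absolute difference between the 2 arrays of a genotype (x axis, log2), for the 38 members and all 22007 tested probes. The medians of the members are 0.24 between control arrays and 0.94 between Meis1-deficient arrays, and *Crebbp*, at 6.04, lies beyond the axis of the Meis1-deficient panel.

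Many members had several probes. Apart from *Eed*, whose brightest probe lies on the minus strand and whose other tested probe lies on the plus strand, the tested probes of a gene were annotated to the same strand. Of 83 probes of the members, 76 were tested, and 26 genes had more than 1 tested probe. Of the 76, 9 passed the filter on dim probes through the control arrays alone, so they were tested only because they were high in the controls, and all 9 had a lower mean in Meis1-deficient cells. No probe passed only through the Meis1-deficient arrays. Signs of probes are therefore given over the other 67, all well above background on the 4 arrays. Among these, 22 genes had more than 1 probe, and in 8 the probes differed in sign. Over all 76 tested probes, the 9 included, the range between probes of the 26 genes had a median of 0.28 on the first slide. On the second slide it was 0.96. *Chd4* was lower by all 3 of its tested probes, from -1.37 to -0.61, as was *Ash1l*, from -1.63 to -0.46. *Smarca4* was lower by both of its probes that were well above background on every array (-1.17 and -0.83), and its other tested probe passed only through the controls (-1.47, and -0.083 with normexp correction). *Rbbp5* was higher by both probes, with 0.37 and 0.50, and *Wdr5* with 0.17 and 0.37.

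These 8 genes were *Ring1*, *Phc1*, *Suz12*, *Jarid2*, *Uhrf1*, *Ash2l*, *Suv39h2* and *Crebbp*. Of the 3 *Crebbp* probes, the brightest had -2.40 and the others -0.39 and 0.40. The last of these had a scaled signal of -2.20 and -2.08 in Meis1-deficient cells against -2.44 and -2.63 in control cells, so that the genotypes did not overlap in the direction opposite to that of the brightest probe. The *Jarid2* probes had -0.66 and 0.05, those of *Ash2l* 0.42 and -0.39, and those of *Suv39h2* 0.72 and -0.24. Several genes had further probes that passed only through the controls, with -1.18 for *Jarid2*, -0.54 and -0.01 for *Suv39h2*, -0.46 for *Ep300*, -0.67 for *Tet2* and -0.075 for *Eed*. With normexp correction all of these were above 0, at 0.16, 0.16, 0.37, 0.28, 0.11 and 0.32 in that order. *Phc1*, a PRC1 scaffold gene, had a scaled signal of 1.75 and 0.29 against 1.77 and 1.14 by its brightest probe (difference -0.44, SE 0.61, adjusted p = 0.983 in limma), and its other probes had -0.72 and 0.12.

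A second, dim probe of *Cbx8* was the only one of the 76 with an unadjusted p under 0.05 (0.013, limma, adjusted p = 0.983). It had a scaled signal of -5.20 and -5.51 in Meis1-deficient cells and of -4.04 and -2.74 in control cells, and it was well above background only on the control arrays. With each Meis1-deficient value raised to the lowest value well above background on its array, the signal was 1.24-fold lower in the main scaling. This is no bound under other background corrections. With the slide as a block it was past the criteria of the study (unadjusted p = 0.0049, adjusted p = 0.390 in limma). It entered the test only through the control arrays, where it was high, so these p-values were conditioned on the difference, and with normexp correction its difference was 0.11. The brightest *Cbx8* probe had a difference of -0.03 (SE 0.50), so this result rests on 1 dim probe.

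**Figure D4:**
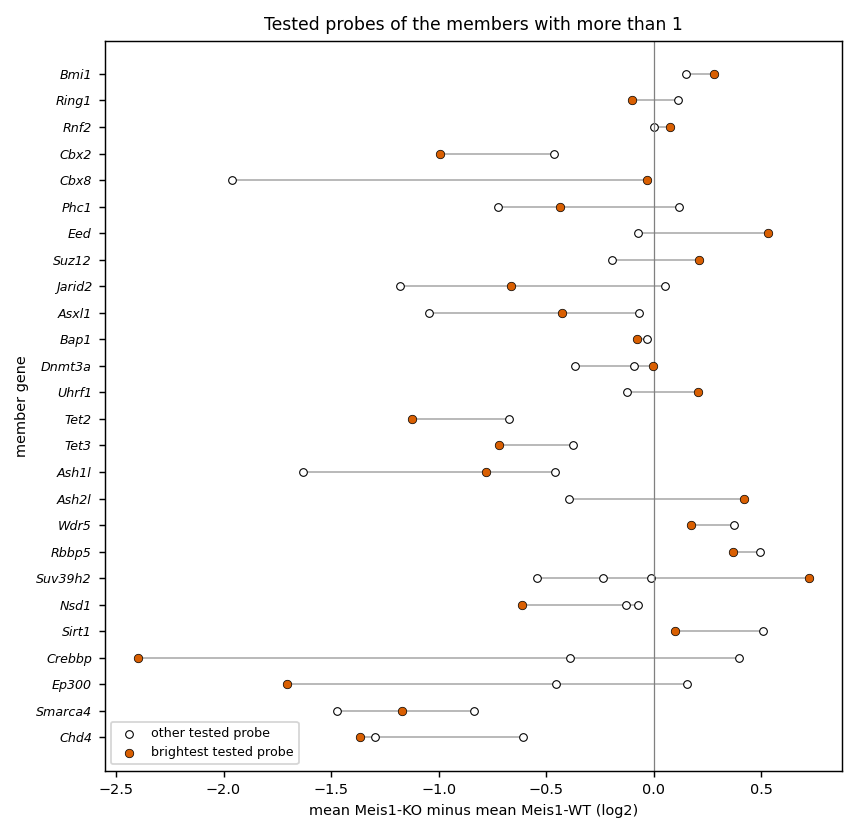
Difference between genotypes (x axis, log2, Meis1-deficient minus control means) for each tested probe of the 26 members with more than 1 (y axis), with the brightest probe in orange. Probes of *Chd4* and *Ash1l* all lie below 0, whereas those of *Crebbp* range from -2.40 to 0.40, and 9 of the tested member probes, all below 0, passed the filter only through the control arrays.

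A wider list of other chromatin genes was read in the same way, and 116 of them were tested. None met the criteria of the study or had an unadjusted p under 0.05. With the slide as a block, 4 had such a p, against 5.93% of all tested probes (limma). Of the 116, 38 were higher and 78 lower, with a median difference of -0.21, compared with -0.09 over the members and 0.08 over all tested probes. As for the members, the median was near 0 on the first slide (0.03) and lower on the second (-0.41), and without the second Meis1-deficient array 76 were higher and 40 lower. By class, 19 of 23 other histone methyltransferases, 11 of 13 demethylases, 17 of 23 remodelers and 6 of 8 acetyltransferases were lower, as were 12 of 21 other Polycomb genes and 12 of 20 genes of deacetylase complexes, and 7 of 8 other DNA methylation genes were higher. Of all tested probes, 43.8% were lower. The SWI/SNF subunit *Arid1a*, a partner of *Smarca4* that is outside the rule for named genes and was picked after its values were seen, had a scaled signal of 1.59 and -2.66 in Meis1-deficient cells and of 1.51 and 0.26 in control cells (difference -1.41, SE 1.33). The first Meis1-deficient array was the highest of the 4 and the second the lowest.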

How the data were processed

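RNA of LSK cells was measured on 4 one-color Agilent arrays, from 2 pools per genotype, with 10 ng of RNA amplified and labeled with Cy3. The authors deposited spot intensities from Feature Extraction, version 9.5.3.1 per the file headers and 9.1 per the labels, background-subtracted within an array but not scaled between arrays, and a table of the same intensities. A surrogate intensity replaced 25.2% to 33.2% of spots, those not above background, which pulls dim genes together.

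Control spots and those marked as outliers were removed, the log2 values of a probe's spots averaged, and each value centered on the 75th percentile of each array. Probes were tested where both arrays of a genotype were well above background (22007 of 41174). The test was limma's (version 3.58.1, R 4.3.3, lmFit and eBayes) on genotype alone, with Benjamini-Hochberg adjustment over all of them. The fit was tested on simulated data. On arrays, the number of replicates limits the precision. Positions are those of the array annotation on mm9. Of the 83 probes of the members, 70 had an accession in a RefSeq gene table (GRCm38.p6, used for names only), and all 70 matched by symbol.

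Per the file headers, arrays with the same replicate number shared a slide, and deviations of same-numbered arrays correlated at 0.27. The members and gene lists were chosen with earlier results of these data known. Any member could be named. All values with SE and adjusted p are given for members without overlap and with an unadjusted p under 0.05 (none), for the largest difference of each class and for members whose probes differ in sign; other chromatin genes were to be named only past the criteria or that p. The alternatives were median, quantile and normexp (offset 50) processing, the authors' table, other filters on dim probes, the slide as a block, outlier spots kept, the mean of a gene's probes, the methods' t-test and each array left out. Marker lists for B lineage, plasma, T lineage, erythroid, granulocyte and monocyte, and megakaryocyte cells had 1 of 6, 3 of 5, 0 of 5, 4 of 6, 6 of 8 and 5 of 5 genes well above background on all arrays.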

Additional observations from a re-analysis of the deposited data

How the results depend on the processing

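The 14 alternatives left no member past the criteria of the study, except that leaving out an array gave 0 to 7 members, the highest without the first Meis1-deficient array. Members with an unadjusted p under 0.05 numbered 0, but 1 (*Ep300*) with no filter on dim probes, 2 with the slide as a block, and 0 to 16 with an array left out. The methods' t-test gave 0 on both counts. With no filter on dim probes, 2.91% of all probes had an unadjusted p under 0.05, and with the slide as a block 5.93% (limma). The 1 of 39 and the 2 of 38 members did not exceed these shares. The median difference of -0.09 ranged from -0.36 to -0.012 with an array left out, the lowest being without the first Meis1-deficient array. Under the other alternatives it ranged from -0.21 to -0.0077. The medians on the 2 slides were 0.07 and -0.20. Their SD of 0.19 comes from 2 values only, so it sets no limit for these shifts. The replicate number pairs the arrays by slide, and with the replicate block 2 members had an unadjusted p under 0.05, the second *Cbx8* probe met the criteria, as described above, and 424 instead of 162 of all tested probes met the criteria.

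The largest difference of each class (11 genes) was followed through the alternatives other than the 2 filters on dim probes and the methods' t-test, and the other members were not followed one by one. With an array left out, *Asxl1* ranged from -1.03 to 0.18, *Dnmt1* from -1.53 to 0.054, *Tet2* from -2.68 to 0.42, *Nsd1* from -1.42 to 0.20, *Hdac3* from -0.24 to 1.66, *Crebbp* from -5.42 to 0.62 and *Chd4* from -2.75 to 0.011, and the end with the opposite sign was that without the second Meis1-deficient array in each. *Cbx2* ranged from -1.62 to -0.36, *Jarid2* from -1.08 to -0.25, *Ash1l* from -1.37 to -0.19 and *Suv39h2* from 0.022 to 1.42. *Suv39h2* was -0.018 as the mean of its tested probes, 2 of which passed the filter only through the controls. The cause was not tested. Over all tested probes, the methods' t-test called 30 by the criteria, limma called 47 with normexp correction, 54 with a filter on all 4 arrays, 295 with no filter and 297 without the second Meis1-deficient array, against 162. Members near the floor, such as *Kdm6b*, are limited by signal over background.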
